A study of Mus musculus with 13 samples.

Results

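The genes described here are 10 genes of the cAMP and protein kinase A (PKA) pathway that holds mouse oocytes in meiotic arrest: Gpr3, Adcy3 and Pde3a, which set the cAMP level, Prkar1a, Prkar1b, Prkar2a and Prkar2b, the regulatory subunits of PKA, Prkaca and Prkacb, its catalytic subunits, and Akap1, an anchor of the kinase. They were chosen by gene symbol, with no threshold on a measured value and no contrast of the groups, and all 10 were found among the 18939 genes of the count tables and the 49686 genes of the FPKM table. The choice was made with earlier results of these data known, so the tests below describe these genes and are not independent evidence about them. Transcripts were measured by RNA-seq of 13 single oocytes, 1 library each, from 3- to 4-week-old, PMSG-primed C57BL/6 females: 3 SN GV, 3 NSN GV, 4 SN-MII and 3 NSN-MII oocytes. GV oocytes are arrested in meiotic prophase with an intact germinal vesicle, and MII oocytes have completed the first meiotic division. SN and NSN mean that condensed chromatin does or does not surround the nucleolus. All 4 groups carried injected FBL-GFP mRNA (a tagged nucleolar protein) together with H2B-mCherry mRNA, spent 6 h in Cilostamide, an inhibitor of PDE3, and were typed by the FBL-GFP pattern. The SN-MII and NSN-MII oocytes were then released from the inhibitor and matured in vitro. The labels do not say which oocytes shared a female, so p-values measure the spread between single oocytes only. Every oocyte had thus been held in arrest by blocking the product of a gene described here, and no group went without this block. The GV oocytes were under the inhibitor, while the MII oocytes had been released from it and cultured further. In each comparison of GV with MII, the stage therefore cannot be told apart from the release and the longer culture.

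In the growing follicle, the receptor GPR3 signals constantly through Gs to adenylyl cyclase, and the cAMP made keeps PKA active, which holds CDK1 inactive by way of the kinase WEE1B and the phosphatase CDC25B. PDE3A breaks cAMP down, and cGMP that enters from the follicle cells through gap junctions keeps PDE3A inhibited until the luteinizing hormone surge. PKA is a tetramer of regulatory and catalytic subunits, in which type I (RI) and type II (RII) regulatory subunits differ in their affinity for cAMP and in the anchoring proteins that place the kinase in the cell. Fully grown oocytes store many mRNAs with short poly(A) tails and lengthen the tails of some of them at meiotic resumption.

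The libraries were primed on poly(A) tails, so a longer tail and a larger number of transcripts cannot be told apart in these values. Cytoplasmic polyadenylation elements (CPE) are the 3′ UTR sequences to which the CPEB proteins bind to lengthen tails, and their letters were therefore searched in the last 100 bases of each 3′ UTR, on the transcript strand, as TTTTAT or TTTTAAT. Of the 10 genes, 4 held such letters, against 17.8% of 19699 coding genes and 20.0% of the 10735 such genes tested between stages. The windows around the match are shown in the transcript's direction with the letters in capitals, from GENCODE M21 transcripts on GRCm38 (mm10), for Prkar2b (chr12:31958476-31958505, minus strand), Prkacb (chr3:146729604-146729633, minus strand), Adcy3 (chr12:4213487-4213516, plus strand) and Akap1 (chr11:88830862-88830891, minus strand).
Prkar2b: ccttataataaagcacacTTTTATaataaa
Prkacb: gaaaatgtgttTTTTAATtcatcaataacc
Adcy3: agaacaggactgTTTTATtaaaagctttac
Akap1: tggtgttgactcTTTTATagactgtcttta
The match began 12 bases from the transcript's end in Prkar2b, where the window's last 6 letters are AATAAA, and 27, 49 and 88 bases from the end in Adcy3, Prkacb and Akap1. The poly(A) signal letters AATAAA or ATTAAA were found in the same 100 bases of 8 of the 10 genes, all but Pde3a and Akap1, and in 78.6% of coding genes. No CPE letters were found in this window of Prkar1a, Prkar1b, Prkar2a, Prkaca, Pde3a and Gpr3. The longest annotated coding transcript with a complete end was searched for each gene, and whether these oocytes use that 3′ end was not tested. A match is a description of the sequence only.

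Total counts were between 7140416 and 8846287 per library, and 11593 to 13342 genes had a count. The 10 most abundant genes took 5.47% to 12.1% of a library's counts, a share that was higher in every MII than in every GV library and highest in NSN-MII library 3, which also had the fewest genes. Oocyte markers summed to between 13050 and 19289 FPKM. The 20 cumulus and granulosa markers summed to between 31.1 and 40.9 FPKM at GV and between 43.1 and 67.2 FPKM at MII, with 9 to 15 of them at 0 in a library, Cyp19a1 the highest (16.8 to 53.1 FPKM), and Foxl2, Lhcgr, Ptx3, Ereg and Fst at 0 in all 13. Their part in the differences between stages was not tested. Levels within a gene are given as CPM (counts scaled to a common library size) scaled with edgeR's TMM factors, and levels are compared between genes only in FPKM, which divides by gene length. Both are shares of a library, and a change in the total RNA of an oocyte is not seen in them.

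Per length, Prkar1a had the highest mean level of the 10 genes over all 13 oocytes, with 42.1 ± 12.5 FPKM (SD, n = 13), though not in NSN-MII oocytes, where its mean of 27.8 FPKM was below those of Pde3a (35.8), Gpr3 (30.3) and Prkar2b (28.5). Pde3a followed with 31.7 ± 13.4 FPKM, Gpr3 with 31.6 ± 9.66, Akap1 with 24.7 ± 7.78, Prkar2b with 20.7 ± 9.79 and Prkar2a with 16.4 ± 9.27, and neighbours in this order lay within each other's spread. Prkaca had 9.20 ± 4.63 FPKM and Prkacb 1.90 ± 1.11. Adcy3 stood at 0.279 ± 0.165 FPKM, and Prkar1b was near the limit of detection, with 1, 1 and 2 counts in 3 libraries and none in the other 10. Prkar1b passed no filter on low counts and is given no fold change, since a count of 0 allows up to 3 counts.

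**Figure D1:**
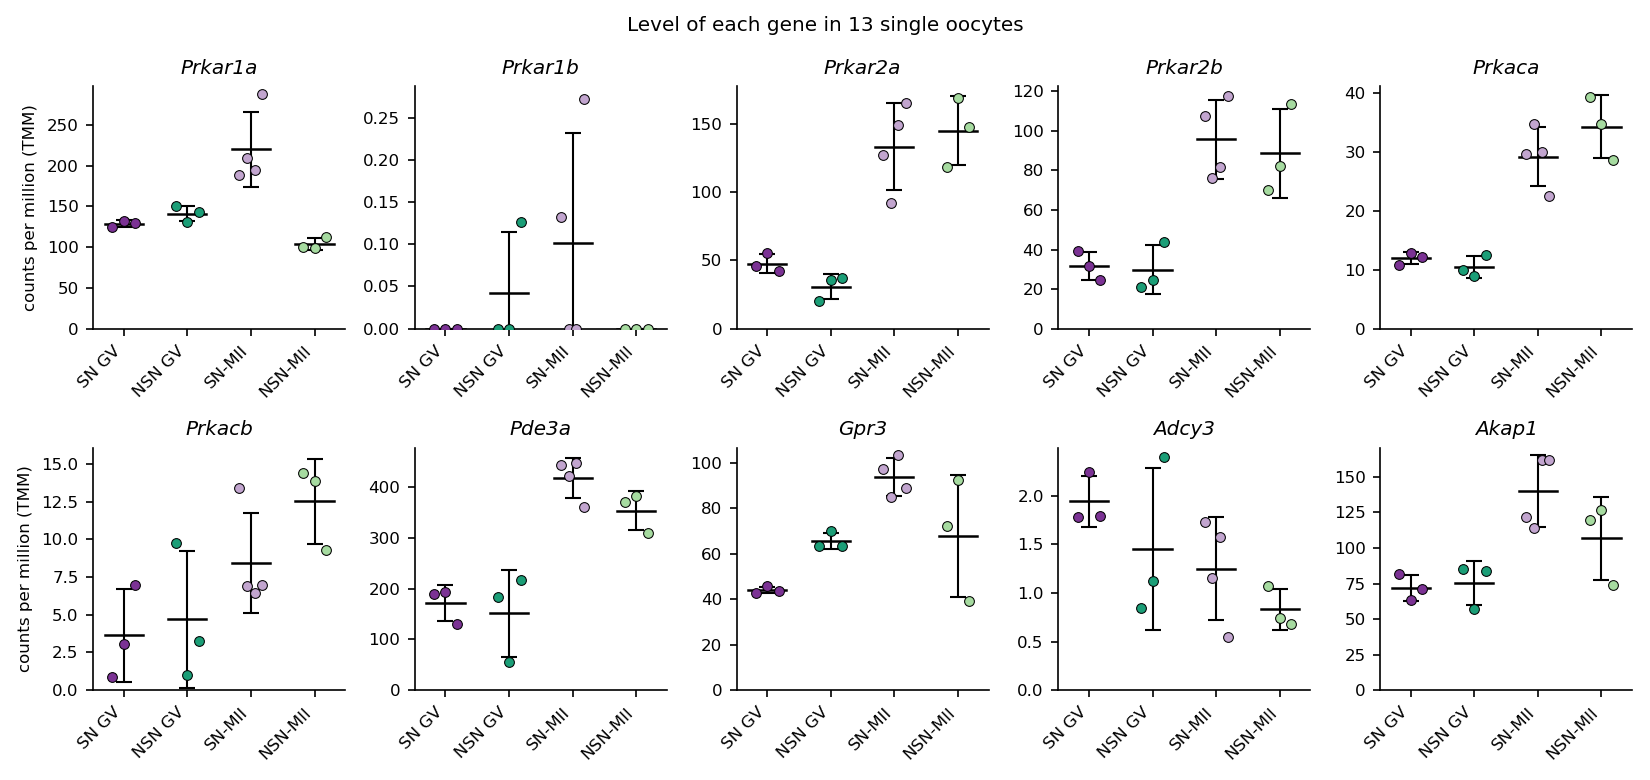
Level of each of the 10 genes in CPM (y axis, linear and with its own range per gene) in the SN GV, NSN GV, SN-MII and NSN-MII oocytes. Points are single oocytes, and bars are the mean and SD; Prkar2a, Prkar2b, Prkaca and Pde3a have no MII oocyte within the range of the GV oocytes, and Prkar1a is the gene whose MII groups lie apart.

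The first question is how these transcripts changed between arrest and MII. Of the 9 genes tested, 7 rose and none was called lower from GV to MII (quasi-likelihood test of edgeR, Benjamini-Hochberg adjusted p under 0.05), with Prkar2a, Prkar2b and Prkaca rising most and Prkacb, Pde3a, Akap1 and Gpr3 less. Between these stages 68.6% of the 11375 genes tested passed the test, 31.7% as higher and 36.9% as lower. The median log2 fold change of the 9 genes was 1.25, beside -0.10 over all genes tested. Prkar1a and Adcy3 did not pass with edgeR. In 4 of the 9 genes, Prkar2a, Prkar2b, Prkaca and Pde3a, the GV and MII oocytes did not overlap in CPM, as in 47.4% of all genes. Scaling by library totals moved the median log2 fold change of all genes by -0.29 and left 4 genes called, the same 4, while upper quartile factors moved it by 0.13 and limma on log2(FPKM + 1) by -0.14.

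Gpr3 (chr4:133209340-133212536, minus strand) encodes the constitutively active receptor at the head of the pathway. Its level was 42.8, 45.8 and 43.6 CPM in the SN GV oocytes and 63.6, 69.9 and 63.4 CPM in the NSN GV oocytes. In SN-MII oocytes it was 97.1, 84.9, 103.6 and 89.2 CPM, and in NSN-MII oocytes 72.4, 92.3 and 39.2 CPM. All SN-MII oocytes were above all GV oocytes, while the NSN-MII oocytes lay between the SN-MII range and a level below every GV oocyte, with library 3 the lowest of the 13. From GV to MII Gpr3 rose by 0.57 ± 0.18 on the log2 scale (SE; edgeR adjusted p = 0.00908). The call was lost with library totals (edgeR adjusted p = 0.207) and with limma on FPKM (limma adjusted p between 0.0837 and 0.144). An exon of Gpr3 overlaps Cd164l2 on the opposite strand, which had 3735 to 5356 counts at GV and 1179 to 2455 at MII, and since the protocol keeps no strand the reads of both cannot be told apart there.

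Adcy3 (chr12:4133103-4213525, plus strand) encodes an adenylyl cyclase of the oocyte. It had 8.15 to 19.2 estimated counts at GV and 4.04 to 13.1 at MII. The level was 1.70 ± 0.613 CPM at GV (SD, n = 6) and 1.07 ± 0.453 CPM at MII (SD, n = 7), and the stages overlapped. The log2 fold change of -0.71 ± 0.52 (SE) did not pass (edgeR adjusted p = 0.235), and its 95% interval ran from -1.83 to 0.39. With limma on log2(FPKM + 1) and no filter on low values Adcy3 did pass as lower, with a difference of -0.27 on that scale (limma adjusted p = 0.00898), and in SN oocytes with -0.30 (limma adjusted p = 0.0344). Adcy3 overlaps Cenpo on the opposite strand, which had 730 counts or more in every library, and the reads of both cannot be told apart there.

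Pde3a (chr6:141249269-141507448, plus strand) encodes the oocyte's cAMP phosphodiesterase, the enzyme that Cilostamide blocks. It stood at 190.1, 193 and 129.9 CPM in the SN GV oocytes and at 183, 55.1 and 218 CPM in the NSN GV oocytes. In the SN-MII oocytes it was 443, 422, 447 and 361 CPM, and in the NSN-MII oocytes 370.5, 382 and 309 CPM. In CPM the lowest MII oocyte was above the highest GV oocyte, and NSN GV library 2 was far below the other GV oocytes. In FPKM the stages overlapped, as NSN-MII library 3 had 21.75 FPKM and the GV oocytes 6.02 to 27.9 FPKM. Pde3a rose 2.39-fold from GV to MII, by 1.25 ± 0.24 on the log2 scale (SE; edgeR adjusted p = 0.000185), and by 1.05 on that scale without NSN GV library 2. The antisense gene Gm28523 overlaps Pde3a and did not exceed 1.44 FPKM.

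Among the regulatory subunits, both type II genes rose and Prkar1a did not pass the test. Prkar2a (chr9:108689314-108750436, plus strand), which encodes RII alpha, had 45.8, 55.4 and 41.9 CPM in SN GV and 20.0, 35.3 and 37.1 CPM in NSN GV oocytes. It reached 127, 91.7, 149 and 165 CPM in SN-MII and 119, 169 and 147 CPM in NSN-MII oocytes. The stages were apart in every oocyte, and the 3.63-fold rise was the largest of the 9 genes (log2 fold change 1.86 ± 0.19, SE; edgeR adjusted p = 3.06e-07). Prkar2b (chr12:31958476-32061296, minus strand) encodes RII beta and, among these genes, holds the CPE letters nearest to the annotated end. It rose from 30.7 ± 9.09 CPM (SD, n = 6) to 92.7 ± 19.5 CPM (SD, n = 7). Its GV oocytes lay between 20.9 and 43.8 CPM and its MII oocytes between 69.9 and 117.6 CPM, and the log2 fold change was 1.59 ± 0.21 (SE; edgeR adjusted p = 5.36e-06).

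Prkar1a (chr11:109649405-109669656, plus strand) encodes RI alpha. The level was 125, 132 and 129.8 CPM in SN GV and 150.1, 131 and 143 CPM in NSN GV oocytes. It was 188, 209, 195 and 288 CPM in SN-MII and 100.4, 98.5 and 113 CPM in NSN-MII oocytes. The GV oocytes thus lay between the MII groups, with every SN-MII oocyte above and every NSN-MII oocyte below them. Over both types the log2 fold change from GV to MII was 0.16 ± 0.14 (SE; edgeR adjusted p = 0.297), and it turned to -0.14 with library totals. The depth does not limit this gene, which had between 669 and 2115 counts in every library.

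In FPKM, which allows the subunits to be added, Prkar1a made up 64.4 ± 3.63% of the regulatory subunit transcripts in SN GV oocytes (SD, n = 3) and 70.7 ± 7.51% in NSN GV oocytes (SD, n = 3). The share was 52.1 ± 4.96% in SN-MII oocytes (SD, n = 4) and 34.1 ± 4.27% in NSN-MII oocytes (SD, n = 3). The MII groups did not overlap, with 46.4% to 58.3% in SN-MII and 31.2% to 39.0% in NSN-MII oocytes, and all MII oocytes were below all GV oocytes. Prkar2a took 15.7 ± 1.78% and 10.2 ± 2.92% in SN and NSN GV oocytes, and 20.9 ± 3.59% and 31.2 ± 3.99% in SN-MII and NSN-MII oocytes. Prkar2b took 19.9 ± 3.95%, 19.1 ± 5.53%, 26.6 ± 3.83% and 34.7 ± 4.83% in the same order. Type I thus made up most regulatory transcripts in every GV oocyte, and type II most of them in every NSN-MII oocyte. The SN-MII oocytes were mixed. Type II was the larger part in library 1, where Prkar1a had 46.4% and Prkar1b 0.56%. In libraries 2, 3 and 4 Prkar1a had 58.3%, 50.6% and 53.2%. These shares are a description of the values above, with no test of their own.

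**Figure D2:**
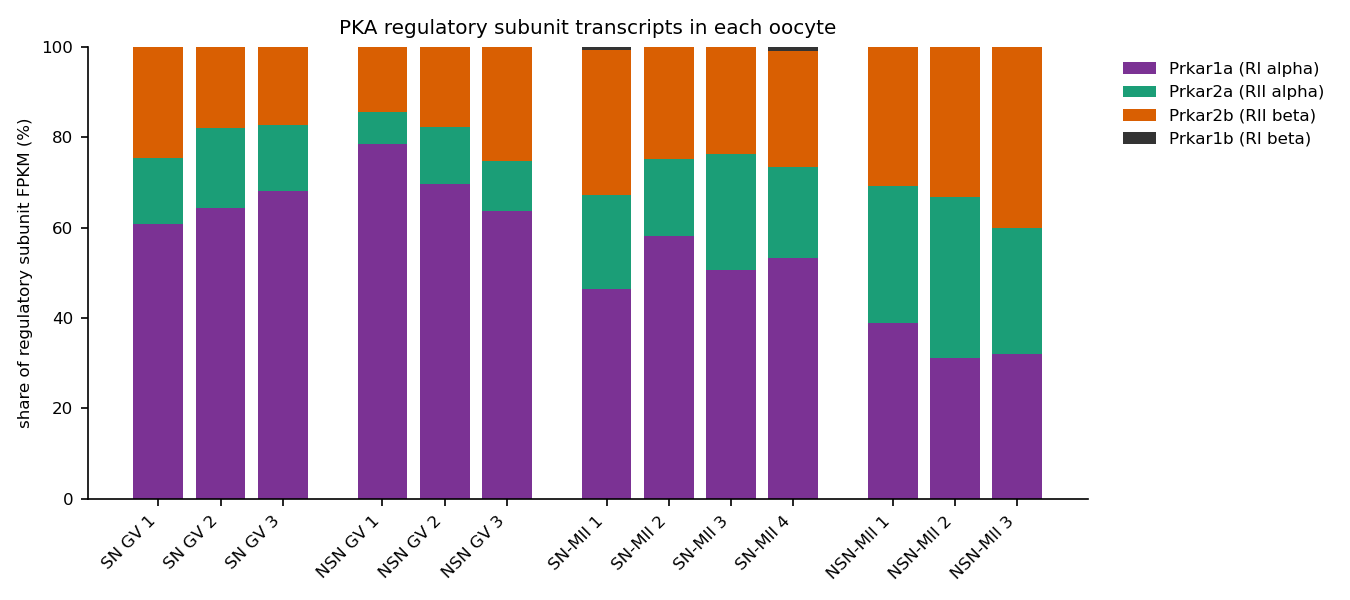
Share of each PKA regulatory subunit gene in the summed FPKM of the 4 subunit genes (y axis, percent, from 0) in each of the 13 oocytes (x axis, by group). Prkar1a has 60.8% to 78.6% in the GV oocytes, 46.4% to 58.3% in the SN-MII oocytes and 31.2% to 39.0% in the NSN-MII oocytes; Prkar1b is visible in SN-MII libraries 1 and 4 only, where it rests on 1 and 2 counts.

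Of the catalytic subunits, Prkaca (chr8:83972993-83996443, plus strand), which encodes C alpha, rose from 11.2 ± 1.55 CPM at GV (SD, n = 6) to 31.4 ± 5.44 CPM at MII (SD, n = 7). The GV oocytes lay between 8.99 and 12.8 CPM and the MII oocytes between 22.5 and 39.4 CPM. The log2 fold change was 1.50 ± 0.19 (SE; edgeR adjusted p = 2.86e-06). Prkacb (chr3:146729574-146812990, minus strand), which encodes C beta, was lower and more variable, with 0.893, 3.08 and 6.95 CPM in SN GV and 9.78, 0.999 and 3.29 CPM in NSN GV oocytes. It had 13.4, 6.94, 6.44 and 6.95 CPM in SN-MII and 14.4, 13.9 and 9.29 CPM in NSN-MII oocytes. SN GV library 3 and NSN GV library 1 lay within the MII range. The log2 fold change of 1.31 ± 0.48 (SE) passed (edgeR adjusted p = 0.0237), but not without SN GV library 1, NSN GV library 3, SN-MII library 1 or NSN-MII library 1 (edgeR adjusted p = 0.0527, 0.0509, 0.0525 and 0.0610), nor with library totals (edgeR adjusted p = 0.115) or with limma and no filter (limma adjusted p = 0.0750). The length of Prkacb implied by the ratio of its counts to its FPKM varied 2.15-fold between libraries, from 2315 to 4981 bases. That ratio varied 2.05-fold for Adcy3, 1.46-fold for Pde3a and 1.17-fold for Prkaca. Prkacb had 7 to 121 counts per library, and whether its transcripts differed in length was not tested.

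Prkaca made up 82.4 ± 11.1% of the catalytic FPKM at GV (SD, n = 6) and 83.7 ± 4.40% at MII (SD, n = 7). The summed regulatory FPKM over the summed catalytic FPKM was 9.25 ± 2.10 in SN GV (SD, n = 3) and 10.4 ± 1.94 in NSN GV oocytes (SD, n = 3). It was 8.08 ± 2.73 in SN-MII (SD, n = 4) and 5.14 ± 1.72 in NSN-MII oocytes (SD, n = 3), ranges that overlapped between the MII groups. These ratios are of transcripts and say nothing of the subunit proteins.

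Akap1 (chr11:88830792-88864586, minus strand) encodes an anchoring protein that binds PKA to the outer mitochondrial membrane. It had 81.4, 63.3 and 71.5 CPM in SN GV and 85.5, 57.3 and 83.5 CPM in NSN GV oocytes. It had 122, 114, 162 and 162 CPM in SN-MII and 119.5, 127 and 73.6 CPM in NSN-MII oocytes. NSN-MII library 3 was the only MII oocyte within the GV range. The log2 fold change from GV to MII was 0.73 ± 0.17 (SE; edgeR adjusted p = 0.00132), and with library totals it was 0.44 (edgeR adjusted p = 0.0547).

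Over the tested coding genes, CPE letters went with a higher level at MII. Of 2144 genes with the letters 48.5% passed the test as higher and 19.5% as lower, with a median log2 fold change of 0.65. Of 8591 genes without them 29.0% were higher and 39.4% lower, with a median of -0.24. Among the genes described here Prkar2b, Prkacb and Akap1 held the letters and rose, and Adcy3 held them and did not pass with edgeR. Prkar2a, Prkaca, Pde3a and Gpr3 rose without the letters in the window searched. Whether the letters had a part in these changes was not tested.

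The same question was put to each oocyte type. In SN oocytes 7 of the 9 genes rose from GV to MII and none was called lower with edgeR, where 56.3% of all genes passed the test (25.1% as higher). In NSN oocytes 4 of the 9 rose and none was called lower with edgeR, where 56.3% of all genes passed (25.4% as higher). Prkar2a, Prkar2b, Prkaca and Pde3a passed in both types, and Pde3a lost both calls with each of the 3 limma settings on FPKM (limma adjusted p between 0.0511 and 0.124 in SN and between 0.0647 and 0.148 in NSN oocytes). The CPM of GV and MII oocytes did not overlap in 8 of the 9 genes in SN oocytes, all but Prkacb, as in 63.4% of all genes, and in 5 of the 9 in NSN oocytes, as in 60.9% of all genes. Prkar2a rose by 1.48 ± 0.26 on the log2 scale in SN and by 2.24 ± 0.28 in NSN oocytes (SE; edgeR adjusted p = 0.000171 and 7.12e-06). Prkaca rose by 1.29 ± 0.26 and 1.71 ± 0.28 (SE; edgeR adjusted p = 0.000547 and 7.65e-05). Prkar2b rose by 1.60 and 1.57 and Pde3a by 1.29 and 1.22 on this scale, with nearly equal values in both types.

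Prkar1a, Gpr3 and Akap1 passed in SN and not in NSN oocytes with edgeR. Prkar1a rose by 0.77 ± 0.19 on the log2 scale in SN oocytes (SE; edgeR adjusted p = 0.00237). In NSN oocytes it had a log2 fold change of -0.44 ± 0.20 (SE; edgeR adjusted p = 0.0674), with all 3 NSN-MII oocytes below all 3 NSN GV oocytes. That value passed as lower with DESeq2 (adjusted p = 0.0396), with library totals (edgeR adjusted p = 0.00243) and with limma on FPKM (adjusted p between 0.0158 and 0.0163), and without SN-MII library 4 or NSN-MII library 3 (edgeR adjusted p = 0.0428 and 0.0421). Gpr3 rose by 1.09 ± 0.25 in SN oocytes (SE; edgeR adjusted p = 0.00135) and had a log2 fold change of 0.05 ± 0.26 in NSN oocytes (SE; edgeR adjusted p = 0.878), a value that was -0.20 with library totals and 0.31 without NSN-MII library 3. Akap1 rose by 0.96 ± 0.24 in SN oocytes (SE; edgeR adjusted p = 0.00282, but limma adjusted p = 0.0521 with no filter) and had 0.50 ± 0.25 in NSN oocytes (SE; edgeR adjusted p = 0.0994), and it passed without NSN-MII library 3 (0.68, edgeR adjusted p = 0.0275) and with upper quartile factors (0.63, edgeR adjusted p = 0.0443). Prkacb did not pass in either type, with log2 fold changes of 1.21 ± 0.67 and 1.41 ± 0.70 (SE; edgeR adjusted p = 0.136 and 0.0948), and it passed in SN oocytes without SN GV library 3 and in NSN oocytes without NSN GV library 1 (edgeR adjusted p = 0.0371 and 0.0109). From SN GV to SN-MII oocytes, 44.6% of all genes called were higher at MII, and 33.5% with library totals.

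**Figure D3:**
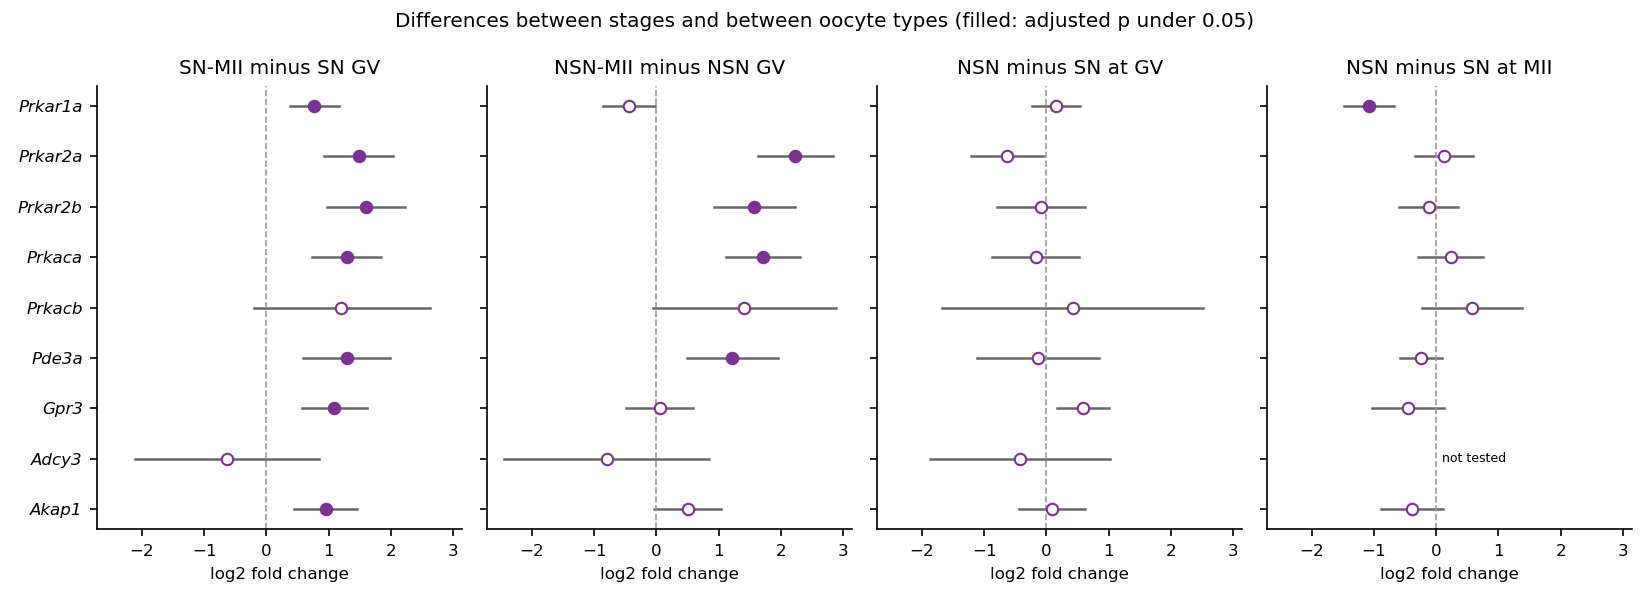
Log2 fold change (x axis) with its 95% interval of each of the 9 genes tested (y axis) for SN-MII minus SN GV, NSN-MII minus NSN GV, NSN minus SN at GV and NSN minus SN at MII. Filled points passed the edgeR test at an adjusted p under 0.05: 7 genes, 4 genes, none and Prkar1a alone (log2 fold change -1.09), and Adcy3 had too few counts for the last.

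Passing in 1 type and not in the other does not show that the types differ, and the difference was tested as the interaction of type and stage. None of the 9 genes passed it with edgeR, where 0.0176% of all genes did. At an unadjusted p under 0.05 there were 2 of the 9 genes and 606 of all 11375. For Prkar1a the interaction on the log2 scale was -1.22 ± 0.27 (SE; edgeR adjusted p = 0.271, and DESeq2 adjusted p = 0.0139, the only call that DESeq2 made among the 9 genes). For Gpr3 it was -1.04 ± 0.35 (SE; edgeR adjusted p = 0.696, and DESeq2 adjusted p = 0.28). For Prkar2a it was 0.75 ± 0.37 (SE; edgeR adjusted p = 0.947). The other 6 genes had interactions between -0.46 and 0.42.

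Within the GV stage, where all oocytes were under Cilostamide, the question is whether NSN and SN oocytes held different amounts of these transcripts. None of the 9 genes tested differed (edgeR, adjusted p under 0.05), and none of the 10839 genes did (0%), nor did DESeq2 call any, while limma on log2(FPKM + 1) called 1 gene, none of the 9. At an unadjusted p under 0.05 there were 2 of the 9 genes and 190 of all. These 2 were the genes whose groups did not overlap, as in 6.57% of all genes. Gpr3 was higher in every NSN GV oocyte (65.6 ± 3.73 CPM, SD, n = 3) than in every SN GV oocyte (44.1 ± 1.52 CPM, SD, n = 3). Its log2 fold change was 0.59 ± 0.18 (SE), with an edgeR adjusted p of 1 and an interval from 0.18 to 1.01. Prkar2a was lower in every NSN GV oocyte (30.8 ± 9.41 CPM, SD, n = 3) than in every SN GV oocyte (47.7 ± 6.92 CPM, SD, n = 3). Its log2 fold change was -0.63 ± 0.26 (SE), with an edgeR adjusted p of 1 and an interval from -1.21 to -0.05. Prkar1a had 0.16 with an interval from -0.23 to 0.54, Akap1 0.09 with one from -0.44 to 0.63, and Prkaca -0.17 with one from -0.87 to 0.53. The intervals of Prkacb, Adcy3 and Pde3a were wider, and that of Prkacb, from -1.67 to 2.52, allows a difference of several fold in either direction.

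At the MII stage, Prkar1a was the 1 gene of the 8 tested that differed between the types, where 0.259% of the 10028 genes passed, 26 genes, 25 of them lower in NSN-MII oocytes (0.249%) and 1 higher (0.00997%). Its level was 104 ± 7.88 CPM in NSN-MII oocytes (SD, n = 3) and 220.2 ± 46.2 CPM in SN-MII oocytes (SD, n = 4). The highest NSN-MII oocyte had 113 CPM and the lowest SN-MII oocyte 188 CPM, and groups that do not overlap occurred in 10.2% of all genes. The log2 fold change was -1.09 ± 0.18 (SE; edgeR adjusted p = 0.0406), a level 2.12-fold lower in NSN-MII oocytes. The direction and size held under each alternative tried, between -1.16 and -0.93, and the call did not. It was kept with DESeq2 (adjusted p = 5.02e-05) and with all libraries in 1 fit (edgeR adjusted p = 0.0137), and lost with limma on FPKM (adjusted p between 0.0910 and 0.172). Leaving out SN-MII library 2, 3 or 4 or NSN-MII library 1 or 2 also lost it (edgeR adjusted p = 0.115, 0.124, 0.0949, 0.145 and 0.172), and leaving out SN-MII library 1 or NSN-MII library 3 did not (edgeR adjusted p = 0.0412 and 0.0141).

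The other subunits of the kinase did not pass at MII. Prkar2a had a log2 fold change of 0.12 with an interval from -0.35 to 0.59, Prkar2b -0.12 with one from -0.60 to 0.35, and Prkaca 0.23 with one from -0.29 to 0.76. Prkacb had 0.58 with an interval from -0.23 to 1.39. Gpr3, Akap1 and Pde3a had values below 0, at -0.45, -0.38 and -0.24, and without NSN-MII library 3, the library with the fewest genes, these were -0.18, -0.17 and -0.14. The levels of all 3 genes in that library were the lowest of the 7 MII oocytes. Adcy3, with 4.04 to 13.1 counts per MII library, and Prkar1b were not tested.

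**Figure D4:**
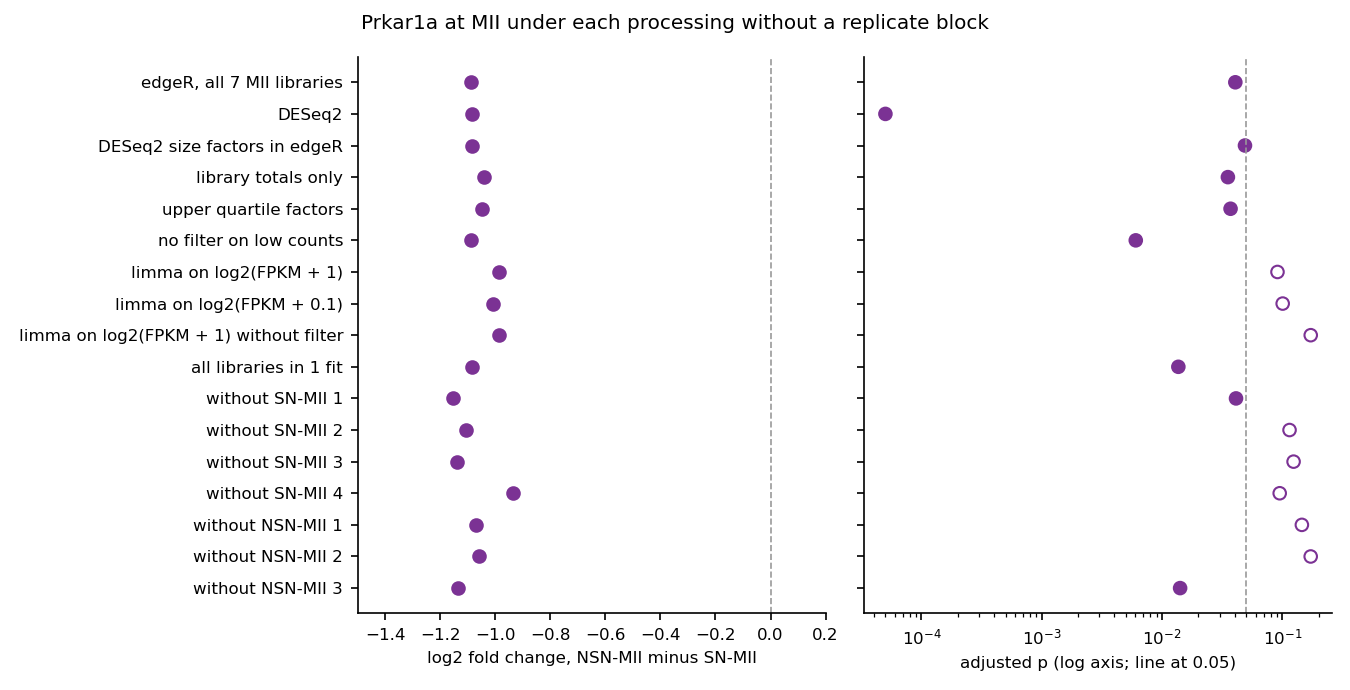
Log2 fold change of Prkar1a, NSN-MII minus SN-MII (left x axis), and its adjusted p (right x axis, log scale, line at 0.05) under each processing (y axis) other than the fit with the replicate number as a block, which also missed the threshold, with filled points for an adjusted p under 0.05. Among those shown, the fold change stays between -1.16 and -0.93 while the adjusted p lies between 5.02e-05 with DESeq2 and 0.172 with limma and no filter.

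Around these genes, 117 others of the pathway were taken in 8 lists from general knowledge. From GV to MII 68 of the 95 tested passed (71.6%), 42 as higher and 26 as lower, near the 68.6% of all genes, with a median log2 fold change of 0.50. Between NSN and SN oocytes none passed with edgeR, of 90 tested at GV and 89 at MII. An unadjusted p under 0.05 was found for 1 of them at GV, beside 190 of all 10839 genes, and for 9 at MII, beside 941 of all 10028. DESeq2 called none at GV and 1 at MII, Gnai2, an inhibitory G protein subunit named here after its values were seen. None of the 95 passed the interaction with edgeR or DESeq2, and 6 had an unadjusted p under 0.05 with edgeR, beside 606 of all 11375 genes.

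Upstream of cAMP, 10 of 12 tested genes in the list of receptors and G proteins passed between stages (83.3%, beside 68.6% of all genes), 8 higher and 2 lower. The 12 were genes for G protein subunits and, besides these, Rgs2 and Arrb2, and no receptor was among them. Gnb1, a G protein beta subunit, had the largest rise, from 65.1 ± 5.68 CPM (SD, n = 6) to 245.5 ± 38.9 CPM (SD, n = 7), by 1.93 ± 0.14 on the log2 scale (SE; edgeR adjusted p = 2.52e-09). Gnas, which encodes the Gs alpha subunit that GPR3 acts through, rose by 0.43 ± 0.17 over both types (SE; edgeR adjusted p = 0.0307), and the stages overlapped. Its log2 fold change was 0.73 in SN oocytes (edgeR adjusted p = 0.0123) and 0.12 in NSN oocytes (edgeR adjusted p = 0.686). Arrb2, an arrestin, was the called gene with the largest fall, with a mean of 1.75 CPM at GV and no more than 3 counts in any MII library, so no fold is given. Gpr12, the relative of Gpr3, had 0.12 to 1.25 CPM at GV and at most 0.13 CPM at MII and did not pass the filter. Of 7 tested genes in the adenylyl cyclase list 2 rose and 2 fell (57.1% passed, beside 68.6% of all genes). Cap1, which encodes a cyclase-associated protein and not a cyclase, was among the 7 and did not pass. Adcy9 rose from 3.86 ± 1.74 CPM (SD, n = 6) to 15.3 ± 3.80 CPM (SD, n = 7), while Adcy1 fell by 1.47 ± 0.49 on the log2 scale (SE; edgeR adjusted p = 0.014), with 1 GV oocyte at 47.4 CPM and the others at 20.8 CPM or less.

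Of 15 tested genes in the phosphodiesterase list, which leaves out Pde3a, 4 rose and 6 fell (66.7% passed, beside 68.6% of all genes). Pde6d, counted among the 6, encodes a prenyl-binding protein and not a phosphodiesterase enzyme. Pde4a, a cAMP phosphodiesterase, rose from 3.42 ± 1.61 CPM (SD, n = 6) to 14.3 ± 3.77 CPM (SD, n = 7), by 2.07 ± 0.35 on the log2 scale (SE; edgeR adjusted p = 4.93e-05). Pde1a, a calmodulin-dependent phosphodiesterase, fell from 6.36 ± 4.29 CPM (SD, n = 6) to 0.424 ± 0.733 CPM (SD, n = 7), and SN-MII library 2 at 2.06 CPM lay within the GV range. Of 15 tested A-kinase anchoring protein genes 13 passed (86.7%, beside 68.6% of all genes), 11 higher and 2 lower, with a median log2 fold change of 0.97. Wasf1, which encodes the anchoring protein WAVE1, rose from 10.6 ± 3.05 CPM (SD, n = 6) to 30.8 ± 9.61 CPM (SD, n = 7). Akap8l fell from 29.9 ± 7.39 CPM (SD, n = 6) to 5.40 ± 2.76 CPM (SD, n = 7).

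Beside PKA itself, 2 of 8 tested genes for PKA inhibitors and other cAMP effectors rose and 2 fell (50% passed, beside 68.6% of all genes). The 2 genes for EPAC proteins, exchange factors that bind cAMP, moved apart. Rapgef3 (EPAC1) fell from between 25.9 and 59.2 CPM at GV to at most 2.38 CPM at MII (edgeR adjusted p = 1.52e-07), and Rapgef4 (EPAC2) rose from 11.1 ± 3.41 CPM (SD, n = 6) to 27.4 ± 17.1 CPM (SD, n = 7; edgeR adjusted p = 0.00459). Among the CREB family and its coactivators, 5 of 8 rose and 1 fell (75% passed, beside 68.6% of all genes). Crtc3, a CREB coactivator, rose by 1.64 ± 0.29 on the log2 scale (SE; edgeR adjusted p = 7.57e-05), and Crem fell by 1.78 ± 0.52 (SE; edgeR adjusted p = 0.00553).

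At the far end of the arrest pathway, 9 of 22 tested targets of PKA and of their partners rose and 9 fell (81.8% passed, beside 68.6% of all genes). Wee2, which encodes the kinase WEE1B that holds CDK1 inactive, rose from 1068 ± 197 CPM (SD, n = 6) to 1696 ± 260 CPM (SD, n = 7), by 0.67 ± 0.15 on the log2 scale (SE; edgeR adjusted p = 0.000925). Cdc25b, which encodes the phosphatase that opposes it, fell from 86.5 ± 9.26 CPM (SD, n = 6) to 19.3 ± 9.33 CPM (SD, n = 7), by 2.35 ± 0.22 on the log2 scale (SE; edgeR adjusted p = 7.74e-08). Cdk1, the kinase both act on, fell most of the 22, from 209 ± 25.4 CPM (SD, n = 6) to 3.07 ± 1.58 CPM (SD, n = 7). Ywhab, a 14-3-3 protein, rose most, from 99.5 ± 21.7 CPM (SD, n = 6) to 364 ± 93.7 CPM (SD, n = 7). For the supply of cyclic nucleotides from the follicle, 1 of 8 tested genes rose and 2 fell (37.5% passed, beside 68.6% of all genes). Prkg2, a cGMP-dependent kinase, rose by 2.17 ± 0.59 on the log2 scale (SE; edgeR adjusted p = 0.00366). Gja4, the gap junction protein connexin 37 through which the oocyte receives cGMP, fell from 843 ± 127 CPM (SD, n = 6) to 78.3 ± 32.3 CPM (SD, n = 7), and no MII oocyte was near the GV range.

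**Figure D5:**
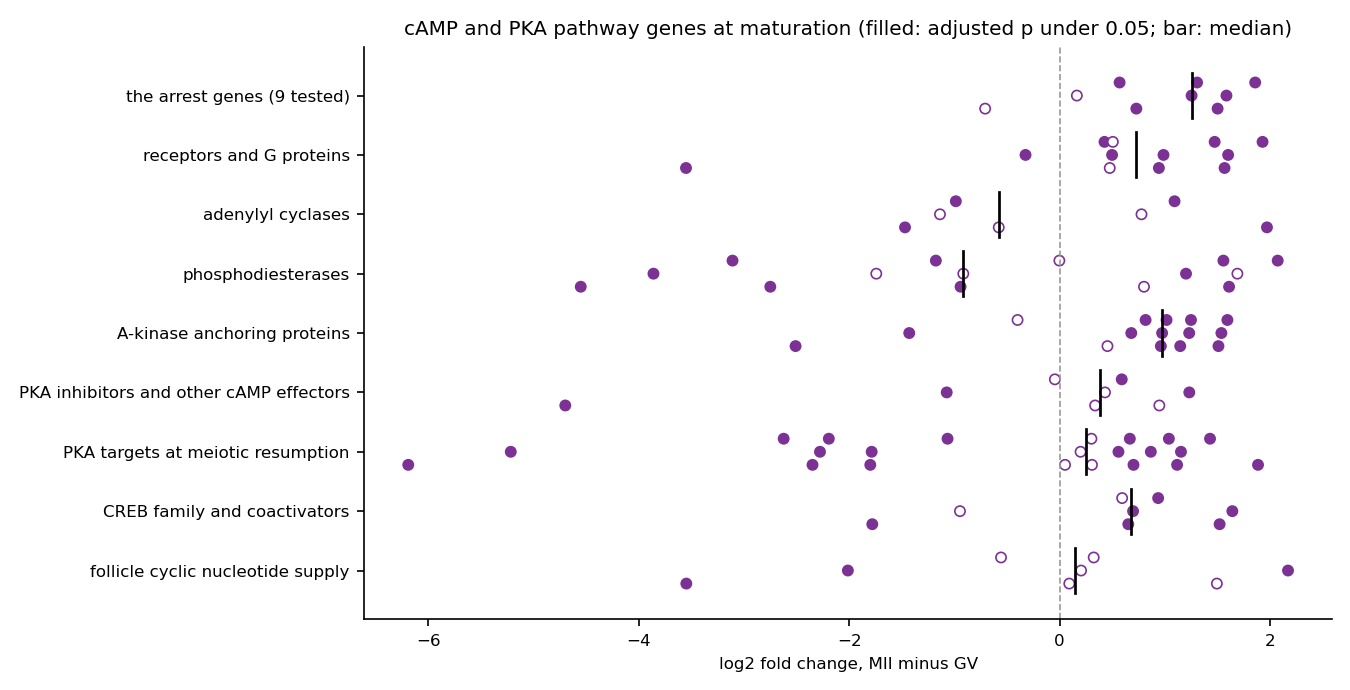
Log2 fold change from GV to MII (x axis) of the 9 arrest genes tested and of the tested genes of the 8 pathway lists (y axis), each point 1 gene, filled where the edgeR adjusted p was under 0.05, with a bar at the list's median. The arrest genes have a median of 1.25 and the anchoring proteins 0.97, and the phosphodiesterase list, with a median of -0.92, spreads from -4.55 to 2.07.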

How the data were processed

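Single oocytes were amplified by SMART-seq2, fragmented with Tn5 and sequenced, with no molecular identifiers or strand step named. Per the labels and the methods, the authors trimmed reads (Trim Galore 0.4.4), mapped them to mm10 with Bowtie2 2.3.5 and quantified genes with RSEM 1.2.28; the submitters' notes also name DESeq2 1.20.0. The expected counts deposited by the authors, 1 table per stage, share reads among genes, and 11.0% to 16.6% of a library's values were not whole. The FPKM values deposited by the authors cover all libraries in 1 table. Gene positions and 3′ UTR sequences came from GENCODE M21, in which 18887 (99.7%) of the count symbols were found.

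Counts were rounded, filtered with filterByExpr (minimum count 10), scaled by TMM and tested with edgeR 4.0.16 (R 4.3.3) by the quasi-likelihood test with Benjamini-Hochberg adjustment over all genes tested, at an adjusted p under 0.05. Stages and the interaction were tested in 1 fit of all 13 libraries, and types within each stage in their own libraries. Libraries of the same group were compared in pairs for copies, and none was found. Alternatives were DESeq2 1.42.0, other scalings, no filter, limma 3.58.1 on log2(FPKM + 1) or log2(FPKM + 0.1), fold changes then understating the change of low genes, for genes whose FPKM averaged 1 or more, or without that filter, the replicate number as a block, and leaving out each library. The steps were tested on simulated data. The genes and lists were chosen with earlier results of these data known. Of each pathway list the text names the called gene with the largest rise and the one with the largest fall between stages, any gene called between types, and Gpr12, Gnas, Gja4, Cdc25b and Wee2. Intervals are 95% intervals of the fit, and the limit of 3 counts covers counting error only. Raw reads, imaging and maturation rates were not analysed here.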

Additional observations from a re-analysis of the deposited data

Results flagged for a closer look

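Prkacb in the SN-MII oocytes had 1 library far from the others. SN-MII library 1 stood at 13.4 CPM and the other 3 at 6.44, 6.94 and 6.95 CPM, and the gap to the nearest of them made up 0.927 of the group's whole range, above Dixon's 95% critical value for 4 samples. SN-MII was the only group of the 4 with enough libraries for this rule, which flags some groups by chance, and without the library the log2 fold change of Prkacb from GV to MII was 1.15 (edgeR adjusted p = 0.0525), and between NSN-MII and SN-MII oocytes 0.89.

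Prkar1a was flagged because every SN-MII oocyte stood above every SN GV oocyte and every NSN-MII oocyte below every NSN GV oocyte. Stages that do not overlap occurred in 63.4% of all genes in SN and in 60.9% in NSN oocytes. With edgeR the change in SN oocytes passed (adjusted p = 0.00237) and that in NSN oocytes did not (adjusted p = 0.0674). The difference between these changes was -1.22 ± 0.27 on the log2 scale (SE), with an edgeR adjusted p of 0.271, a DESeq2 adjusted p of 0.0139 and a limma adjusted p of 0.295, and it lay between -1.29 and -1.06 when 1 library was left out.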

How the results depend on the processing

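The number of the 10 genes called from GV to MII was 4 with library totals and 6 or 7 under the other settings, in SN oocytes 6 or 7, in NSN oocytes 4 or 5, and between types at GV 0 under every setting tried. Equal counts did not hold the same genes: with limma and no filter Adcy3 entered as lower while Prkacb and Gpr3 were lost over both types and Pde3a and Akap1 in SN oocytes, and in NSN oocytes each limma setting lost Pde3a and added Prkar1a as lower. Leaving out 1 library gave 6 to 7, 7 to 8, 4 to 6 and 0 in the same order, 64 to 70 pathway genes between stages, and 0 in the interaction. Between types at MII 1 gene was called, and 0 under each of the 3 limma settings, while leaving out 1 library gave 0 to 1. In the interaction DESeq2 called 1 gene. No fold change that passed the test changed sign. Of those that did not pass, Prkar1a from GV to MII had -0.14 with library totals, Gpr3 in NSN oocytes had -0.20 with library totals and -0.0936, -0.10 and -0.0936 with the 3 limma settings, and Prkacb between types at GV had -0.0129, -0.0142 and -0.0129 with them. Without 1 library, Gpr3 in NSN oocytes lay between -0.23 and 0.31. At GV, Prkar2b lay between -0.43 and 0.0921, Prkacb between -0.81 and 1.34, Akap1 between -0.0678 and 0.27 and Pde3a between -0.43 and 0.27. At MII, Prkar2a lay between -0.0184 and 0.24 and Prkar2b between -0.32 and 0.0189. The cause was not tested. Over all genes, the 26 called between types at MII were 218 with DESeq2, 89 with no filter, 16 with library totals, 4 with limma and 2 with the replicate block, and the 2 of the interaction were 46 with DESeq2, 6 with no filter and 1 with limma. With the replicate number as a block, 0 genes were called between types at MII (Prkar1a -0.93, edgeR adjusted p = 0.248), and the calls among the 10 genes in the other comparisons numbered as without it. The numbers share no stated batch or female: the deviations of same-numbered libraries correlated at -0.42 to 0.21, with 2 of 18 pairs over 0.1, and 3 of 12 libraries correlated best with their own number. With 3 or 4 oocytes per group the spread between oocytes limits most comparisons, and for Adcy3, Prkacb and Prkar1b the counts do as well.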

Other observations

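The following genes were singled out after their values were seen. The 3 genes for the inhibitory G protein subunits, which oppose Gs at adenylyl cyclase, were each called higher at MII with edgeR. Gnai2 rose by 1.60 ± 0.15, Gnai3 by 1.57 ± 0.16 and Gnai1 by 1.47 ± 0.22 on the log2 scale (SE). Over all genes tested 31.7% were called higher. Gnas, the gene for Gs alpha, was also called higher, by 0.43 ± 0.17 (SE). Of the other phosphodiesterases that act on cAMP, Pde8a rose by 1.56 ± 0.25 and Pde3b, the relative of Pde3a, by 1.61 ± 0.26 (SE). Pde1b fell by 2.75 ± 0.27 (SE). In the whole phosphodiesterase list, Pde4d was also called higher with edgeR, and Pde8b, Pde9a and Pde10a were also called lower. The 2 PKA inhibitor genes tested differed, as Pkig fell by 1.07 ± 0.19 and Pkib had a log2 fold change of 0.34 ± 0.34 (SE) that did not pass. Of the cyclin partners of CDK1, Ccnb1 rose by 1.04 ± 0.13 and Ccnb2 by 0.70 ± 0.15 on the same scale (SE), beside the fall of Cdk1 itself.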
